A study of Drosophila melanogaster with 4 samples.

Results

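The stretches of the wing disc genome in which reproducible Osa-GFP CUT&RUN regions lay close together are described here. Peaks of the 4 deposited lists were merged wherever they overlapped by 1 bp or more on the 6 main chromosome arms (X, 2L, 2R, 3L, 3R and 4). A merged region with a peak of both Osa-GFP libraries is called reproducible, whatever the yw libraries held. Neighbouring reproducible regions were chained where the gap between the end of one and the start of the next was 10 kb or less, and chains of 5 or more regions were kept. The result was 177 dense chains with 1212 regions, out of 3344 reproducible regions (36.2%, 95% Wilson interval 34.6% to 37.9%) and 9599 merged regions in all. Reproducible regions were 34.8% of the merged regions. The members were thus chosen by the presence and spacing of Osa-GFP peaks, so the number of chains, their spacing and their Osa-GFP folds are given as a description, with no test. Gene position was not used to choose them, and yw peaks were used only in that they took part in merging.

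CUT&RUN uses an antibody to tether a nuclease to chromatin, so that DNA near the antibody's target is cut and released. There were 2 libraries from wing discs of larvae of the Osa-GFP genotype and 2 from discs of the yw genotype, for which the labels name no GFP. In both genotypes the discs came from female wandering third-instar larvae grown at 25 °C, with 20 to 22 discs per replicate, the same rabbit anti-GFP antibody and the supernatant fraction as the source of DNA. How GFP was joined to Osa is not stated in the labels, nor is whether the replicates were bred separately, and differences between them may be technical in part. The series record says that sample titles were corrected after deposit, and the corrected titles were used. A disc holds several cell types, and the peak lists carry no expression values by which its makeup could be checked.

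Osa is the large ARID-domain subunit that defines the BAP form of the Brahma complex, the SWI/SNF nucleosome remodeler of flies. Remodelers of this family use ATP to slide or evict nucleosomes at promoters and enhancers, and Osa is needed for normal growth and patterning of the wing. Developmental genes of flies often carry many separate enhancers, spread over long introns and over the DNA beside the gene, each of which drives the gene in part of its expression domain.

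On the 6 arms, 5820 and 4987 peaks were listed for the Osa-GFP replicates, against 774 and 4535 for the yw replicates. Depth was read from the caller's fold, which is the number of fragments at the summit plus 1 over the background plus 1. The background was 0.472 and 0.460 fragments per position in the Osa-GFP libraries and 0.120 and 0.481 in the yw libraries, so yw replicate 1 was the shallow library. Because 1 is added to both numbers, a shallow library has a lower fold for the same ratio of fragments to background. Folds of yw replicate 1 are therefore not on the scale of the other libraries. Where they are printed beside Osa-GFP folds, their sizes are not to be compared. The weakest peak of each list had 4 and 4 fragments at its summit in the Osa-GFP libraries and 3 and 4 in the yw libraries. A region without a yw peak is therefore one without a called peak, not one without fragments. A permutation of 2 libraries against 2 can give no two-sided p below 0.33 (exact), and for that reason no test between the genotypes is given. Intervals on shares cover counting error only, since neighbouring regions and fragments after PCR are not independent.

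Most chains were short. Of the stretches of reproducible regions, 689 were regions on their own, 323 had 2 regions, 167 had 3 and 74 had 4, all below the limit. Of the 177 dense chains, 65 had 5 regions and 43 had 6, and 22 had 10 or more, which together held 254 regions. The median chain had 6 regions over 17.9 kb, with spans of 4.71 to 51.0 kb. Together the spans covered 3.51 Mb, or 2.63% of the 134 Mb between the first and last merged regions of the arms. Inside a chain the median gap was 1434 bp and the median chain had 3.56 regions per 10 kb, with a range of 1.61 to 10.6. Regions filled 23.1% of the span of the median chain. The share of an arm's reproducible regions that lay in chains was 29.9% on 2L, 33.6% on 2R, 33.9% on X, 39.2% on 3R and 41.6% on 3L. On the small arm 4 it was 68.8%, on 11 of 16 regions.

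**Figure D1:**
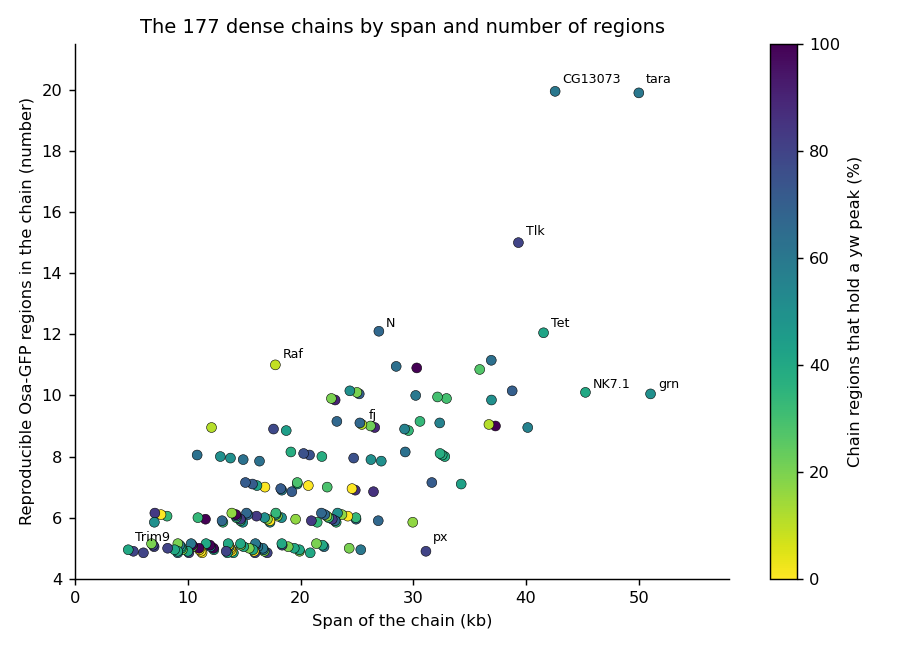
Span in kb (x axis) and number of reproducible Osa-GFP regions (y axis, points shifted slightly so that ties can be seen) of each of the 177 dense chains, coloured by the percentage of the chain's regions that hold a peak of a yw library. The chains at tara and CG13073, with 20 regions each, stand above the rest, and chains of 5 or 6 regions make up 108 of the 177.

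The limits of the rule fell within a continuous range. The longest gap that was kept was 9995 bp and the shortest that was not was 10013 bp, with 68 gaps of 9 to 10 kb and 73 of 10 to 11 kb. Chains of 5, just inside the limit on number, held 325 regions, with a median caller's fold of 9.51 in Osa-GFP replicate 1 and 8.22 in replicate 2. Of these regions 46.2% had a yw peak. Stretches of 4, just outside, held 296 regions with median folds of 8.83 and 7.53, and 48.6% of them had a yw peak.

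A chain with 20 regions, the highest number, lay at taranis (tara), which encodes a nuclear cofactor of the trithorax group involved in the cell cycle. It lay on 3R, at 16205503 to 16255504 (dm6), and 10 of the 20 were centred inside tara and the other 10 to the left of its span. Its best region, at 16252720 to 16253537 inside tara, had folds of 34.0 and 31.5 in the Osa-GFP replicates and no peak of either yw library. Those folds stand for 49 summit fragments (95% Poisson interval 36.3 to 64.8) and 45 fragments (32.8 to 60.2). The neighbouring region at 16253689 to 16255504 had 30.6 and 24.0 in Osa-GFP discs, and 9.82 and 11.5 in yw replicates 1 and 2. Of the 20 regions 12 had a yw peak, 8 of them in a row from 16222162 to 16250860. At 16234113 to 16234754 the Osa-GFP replicates had 14.9 and 14.4, and yw replicate 2 was above both.

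The other chain of 20 regions, on 3L at 16173798 to 16216377, overlapped 5 genes, of which CG13073 held most centres. Only 3 of its 20 regions were centred in a protein-coding gene of the table used here. The best region, at 16211417 to 16211906, had folds of 42.1 and 26.0 in the Osa-GFP replicates and 16.9 in yw replicate 2, with no peak of yw replicate 1. A yw peak was present in 12 regions. The one at 16215577 to 16216377 had 30.6 and 24.0 in Osa-GFP discs, against 10.7 and 47.3 in yw discs, so the deeper yw library had the highest value there.

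The next chains lay wholly inside long genes. Tousled-like kinase (Tlk), a kinase of chromatin assembly and replication, held all 15 regions of a 39.3 kb chain on X at 3741793 to 3781113, and 12 of them had a yw peak. At its best region, 3741793 to 3744084, folds were 17.0 and 16.4 in Osa-GFP discs and 7.14 and 15.5 in yw discs, so that the Osa-GFP values and that of yw replicate 2 were close. Tet, a dioxygenase that oxidises methylated nucleotides, held all 12 regions of a 41.6 kb chain on 3L at 2807398 to 2848950. In Tet, 5 regions had a yw peak. Its best region, at 2823350 to 2825175, had 35.3 and 28.1 in Osa-GFP discs and 11.6 and 25.0 in yw discs, while the region at 2833639 to 2834107 had 35.3 and 39.0 in Osa-GFP discs and 8.10 in yw replicate 2.

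Notch (N), the receptor that sets the wing margin and restricts veins, held 12 regions over 26.9 kb on X at 3136174 to 3163117, of which 8 had a yw peak. The best region of N, at 3150618 to 3151559, had 29.2 and 30.1 in Osa-GFP discs and 15.5 in yw replicate 2. Its region at 3148310 to 3148671 had 18.3 and 19.9 in Osa-GFP discs and no yw peak. The last region of the N chain, at 3161622 to 3163117, had 27.9 and 31.5 in Osa-GFP discs and 9.82 and 27.0 in yw discs, so within 1 gene the yw signal ranged from none called to close to the Osa-GFP level.

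The other chains among the 12 with most regions had 10 or 11. A total of 12 chains had 10 regions, and of these the longest in span, at grn and NK7.1, are counted among the 12 with most. SKIP, whose protein binds Shal potassium channels, held 11 regions over 36.9 kb on 3R, 7 of them with a yw peak, and scribbler (sbb), a nuclear regulator of patterning, named a chain of 11 regions over 28.5 kb on 2R with the same number of yw regions. Frizzled 2 (fz2), a receptor for Wingless, held 11 regions over 35.9 kb on 3L at 19159354 to 19195243, of which 3 had a yw peak. Its best region, at 19171629 to 19172469, had 27.9 and 16.4 in Osa-GFP discs and 8.10 in yw replicate 2. Those Osa-GFP folds rest on 40 (28.6 to 54.5) and 23 (14.6 to 34.5) summit fragments, so the intervals of the replicates meet.

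The chain at Raf, the kinase below the Egfr receptor, was the one of these 12 with fewest yw peaks. It held 11 regions over 17.8 kb on X at 2289181 to 2306943, of which 6 were centred in Raf and 3 in CG2865, and only the region at 2300360 to 2302809 had a yw peak. That region had folds of 20.4 and 13.7 in Osa-GFP discs and 6.08 in yw replicate 2. Over the chain, Osa-GFP folds were 4.76 to 21.7 in replicate 1 and 4.11 to 13.7 in replicate 2, so several of its regions were near the lower limit of the lists. The remaining chains of the 12 were at grain (grn), a GATA factor, with 10 regions over 51.0 kb, the longest span of all, at NK7.1, a homeobox gene, with 10 regions over 45.3 kb, and near the centromere of 3R. In the grn and NK7.1 chains 5 and 4 regions had a yw peak.

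**Figure D2:**
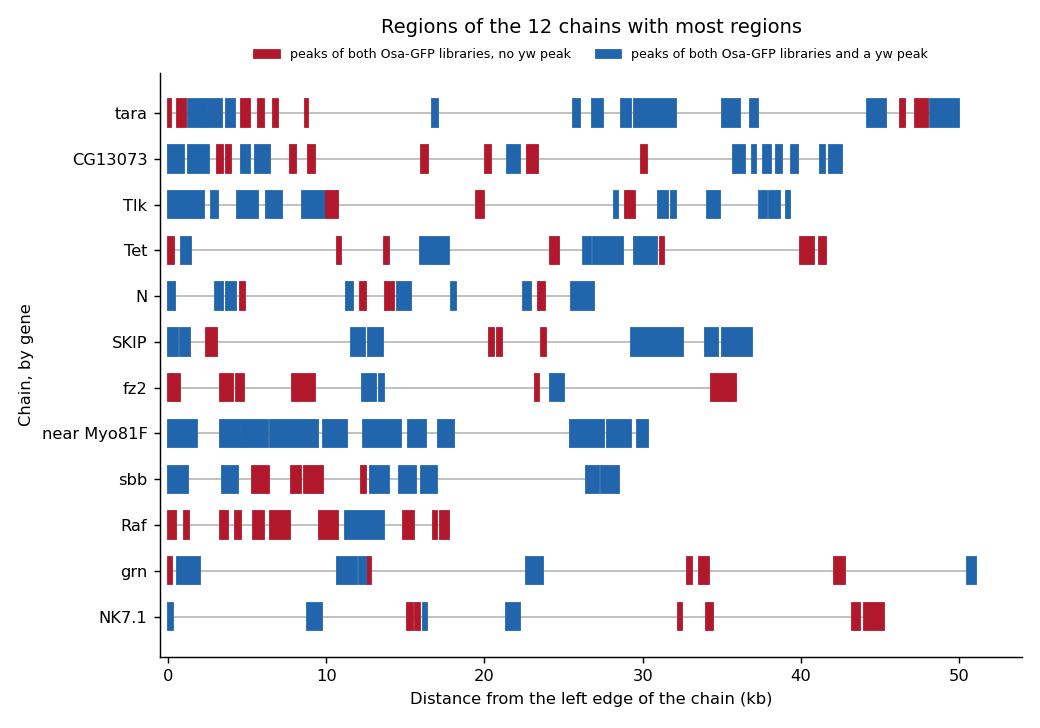
Position of every region of the 12 chains with most regions, in kb from the left edge of each chain (x axis), drawn to scale and listed from most to fewest regions. Red regions have peaks of both Osa-GFP libraries and of no yw library, blue regions also have a yw peak. All 11 regions of the chain near Myo81F are blue and 10 of the 11 at Raf are red, while the chains at tara, CG13073 and N mix both.

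Beyond these 12, the longest chains were at kibra, Serrate and drumstick and near Myo81F and mRpS5. The 10 regions at Serrate (Ser), a Notch ligand, spread over 36.9 kb on 3R at 27185764 to 27222695. Of them 2 were centred in Ser and 8 outside any gene of the table. The best, at 27185764 to 27186893 inside Ser, had 38.7 and 39.0 in Osa-GFP discs and 6.75 in yw replicate 2. The chain named for kibra, which acts upstream of the Hippo kinases, had 10 regions over 38.8 kb and overlapped 5 genes. Of its centres 5 lay in kibra. Its best region, at 14738009 to 14738686 in the gene eff, had 19.0 and 13.0 in Osa-GFP discs against 8.03 and 29.0 in yw discs. At drumstick (drm), a zinc finger gene of the odd-skipped family, 8 of 9 regions over 36.7 kb had no yw peak, with Osa-GFP folds of up to 13.6 in replicate 1 and 8.90 in replicate 2. The densest of the other chains were at Trim9, a ubiquitin ligase gene, with 5 regions in 4.71 kb (10.6 per 10 kb), near CG10283 with 9.67 per 10 kb and near NijA, a ninjurin gene, with 8.54 per 10 kb.

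In the chains towards the centromere of chromosome arms 3L and 3R, yw peaks were frequent. In the chain on 3R at 54170 to 84473, 482602 bp from the nearest gene, Myo81F, all 11 regions had a yw peak. Osa-GFP folds there were 4.76 to 10.2 in replicate 1 and 5.48 to 8.22 in replicate 2. In yw replicate 2, of like depth, they were 3.38 to 9.45, so these ranges overlapped. In the shallow yw replicate 1 they were 4.46 to 8.03, which is not on the same scale. The next chain along 3R, at 127844 to 167991, had 9 regions over 40.1 kb, of which 5 had a yw peak. All 9 regions of the chain on 3L at 24596685 to 24633970, 53150 bp from mRpS5, a mitochondrial ribosomal protein gene, also had one. Its region at 24626605 to 24627502 had 108 and 147 summit fragments in Osa-GFP discs, with Poisson intervals of 88.6 to 130 and 124 to 173, and 76 and 154 in yw discs, with intervals of 59.9 to 95.1 and 131 to 180. These were the highest Osa-GFP values of any chain region, and as folds the yw values were 68.7 and 105. The interval of yw replicate 2 met that of Osa-GFP replicate 2 and lay above that of Osa-GFP replicate 1. Background was 0.120 fragments per position in yw replicate 1, against 0.460 to 0.481 in the other libraries. Its count of 76 is therefore not on the scale of the other counts.

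**Figure D3:**
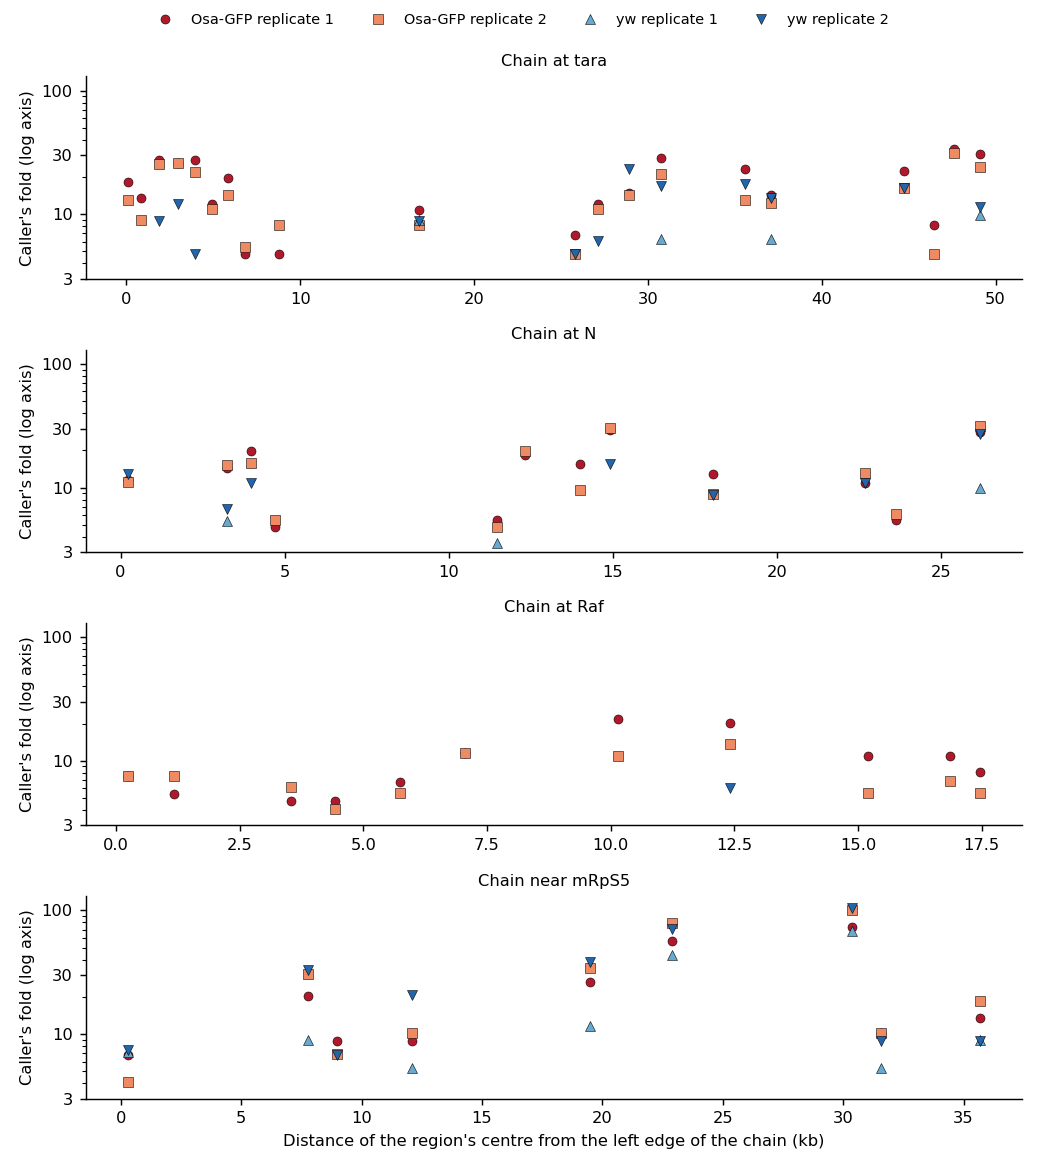
The caller's fold (y axis, log scale) of the strongest peak of each library in each region, against the distance of the region's centre from the chain's left edge in kb (x axis), for the chains at tara, N and Raf and the chain near mRpS5. A missing symbol means that no peak was called. At Raf 1 region has a yw symbol, at tara and N yw symbols appear at 12 and 8 regions, and near mRpS5 every region has one, with yw symbols beside the Osa-GFP symbols at the highest folds.

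Across all chains, 596 of the 1212 regions had a peak of at least 1 yw library, a share of 49.2% (46.4% to 52.0%), against 46.1% (44.0% to 48.2%) of the 2132 other reproducible regions and 47.2% of all of them. The intervals met. Of chain regions 10.2% had a peak of yw replicate 1 and 48.1% of yw replicate 2, against 8.07% and 45.4% of the other reproducible regions and 8.85% and 46.4% of all. The share was thus 3.07 percentage points higher in chains, and under the alternatives run this difference ran from -1.07 to 8.69 points. Wider regions held yw peaks more often in both sets. This is in part built in, since width is that of the merged region, which a yw peak can itself widen. A wider region also meets any peak more easily. Under 300 bp the share was 14.4% in chains and 22.2% elsewhere, at 300 to 600 bp 36.3% and 39.5%, at 600 to 1000 bp 64.8% and 59.0%, and from 1000 bp 83.3% and 81.0%.

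Yw peaks were spread unevenly over the chains. In 163 chains at least 1 region had a yw peak, in 8 every region had one and in 14 none had. These chains are named after their values were seen. The 8 were the chain near mRpS5, 2 chains near Myo81F, the chain near Ids, and those at arrow (arr), a Wingless co-receptor, ovo, a zinc finger gene of the epidermis and germline, Gug, a corepressor of the Atrophin family, and drn. Among the 14 were chains at the Hox gene Antennapedia (Antp), with 7 regions, at the LIM-homeobox gene tailup (tup) of the notum and the glypican gene dally, with 6 each, and at the Wingless receptor gene fz3, with 5. In Antp the best region of this chain, on 3R at 6968817 to 6969330, had folds of 19.7 and 12.3 in Osa-GFP discs and no yw peak. The Osa-GFP folds of arr reached 38.7 and 32.2 at 2R 13463742 to 13464898, where yw discs had 33.0 and 66.2. In 48 chains at least 5 regions had no yw peak.

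Peaks were also counted by library inside the chain spans, with no reading of the ratios. The spans held 1523 and 1433 Osa-GFP peaks, or 433 and 408 per Mb, which was 13.1 and 14.9 times the density outside. They held 152 and 764 yw peaks, or 43.2 and 217 per Mb, against 4.78 and 29.0 per Mb outside, ratios of 9.04 and 7.49. The Osa-GFP ratios follow from the choice of spans. That choice also raises the yw ratios, since 47.2% of reproducible regions held a yw peak. How much of the yw ratios it makes up was not tested. Regions that only yw libraries called, which by definition leave out every yw peak that met an Osa-GFP peak, had 19.3 per Mb inside and 19.6 outside. Regions of 1 Osa-GFP replicate without a yw peak had 63.7 per Mb inside and 13.3 outside for replicate 1, and 30.2 inside and 8.28 outside for replicate 2. Chained by the same gap and number, the peaks of each library alone gave 359 and 281 chains for the Osa-GFP replicates, against 6 and 141 for the yw replicates. Chains of yw replicate 2 met 71 of the 177 dense chains, or 40.1%, and the 6 of the shallow yw replicate 1 met 5.

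Folds in chains were somewhat higher than in other reproducible regions. The median was 9.51 in chains and 8.15 elsewhere in Osa-GFP replicate 1, and 8.22 and 6.85 in Osa-GFP replicate 2. Where yw peaks were present, the medians were 6.25 in chains and 5.36 elsewhere in yw replicate 1, and 6.75 in both sets in yw replicate 2. Of the 100 reproducible regions with the best worse-of-2 rank in the Osa-GFP lists, 59 lay in chains, beside 36.2% of all reproducible regions. Of the best 50 it was 35, and of the best 500 it was 266. These ranks come from the Osa-GFP peaks that also chose the chains, so the counts are a description. Folds of the Osa-GFP replicates ran together across the 1212 chain regions (Spearman 0.830), which share libraries, depth and neighbours; the value was 0.751 over the 2132 other regions and 0.785 over all. Between Osa-GFP replicate 1 and yw replicate 2, Spearman values were 0.325 over 583 chain regions, 0.222 over 967 others and 0.264 over all 1550. In 107 of those 583 regions (18.4%) the fold of yw replicate 2 was above both Osa-GFP folds, as it was in 251 of 967 other reproducible regions (26.0%) and in 358 of 1550 over all (23.1%). In 128 of the 177 chains the same region was strongest in both Osa-GFP libraries. The best region held a yw peak in 135 chains (76.3%, beside 49.2% of all chain regions) and lay within 500 bp of a gene end in 9 (5.08%, beside 6.93%).

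Few chain regions lay at gene ends. Of them 84 of 1212, or 6.93% (5.63% to 8.50%), had their centre at most 500 bp from a protein-coding gene's start or end, against 17.1% (15.5% to 18.7%) of the other reproducible regions and 13.4% of all. Strand is not given in the gene table, so start and termination ends were not told apart. The share centred inside a protein-coding gene was 54.3% (51.5% to 57.1%) in chains, against 67.1% (65.0% to 69.0%) elsewhere and 62.4% over all. Outside genes and more than 500 bp from an end were 41.3% (38.5% to 44.0%) of chain regions and 24.2% (22.4% to 26.1%) of the others. These intervals take regions as independent. Chain regions are neighbours that often share a gene, so the intervals are too narrow to serve as a test. The differences in the share near gene ends and in the share inside genes kept their sign under the alternatives run. For gene ends the alternatives included a limit of 1000 bp (12.3% in chains and 24.3% elsewhere). The median distance to a gene end was 6964 bp in chains and 4002 bp elsewhere, and 19.2% of chain regions against 12.6% of the others were 1000 bp wide or more.

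**Figure D4:**
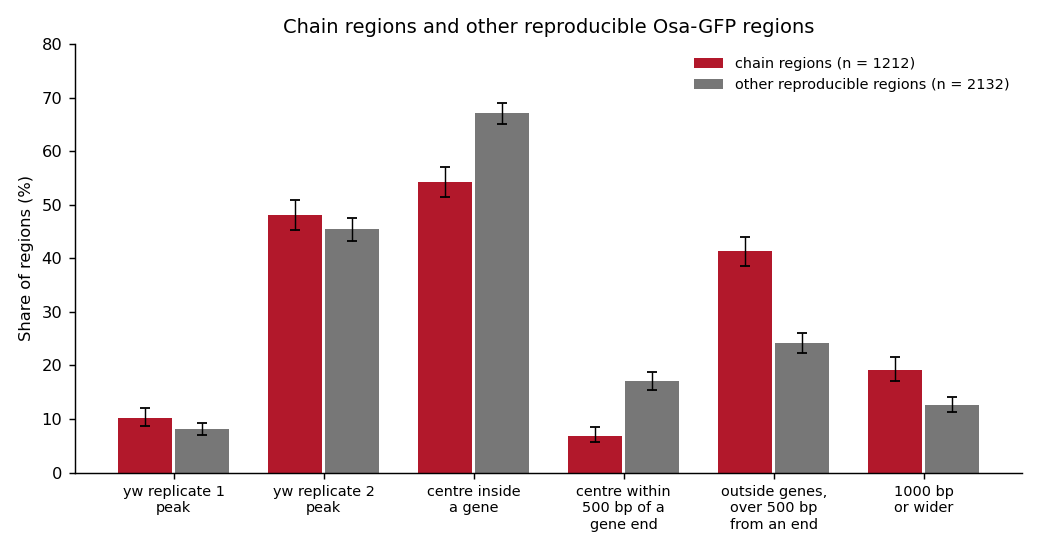
Share of regions in percent (y axis, from 0) with each of 6 properties, for the 1212 chain regions (red) and the 2132 other reproducible Osa-GFP regions (grey); error bars are 95% Wilson intervals. Peaks of yw replicate 2 are at 48.1% and 45.4%, while centres within 500 bp of a gene end are at 6.93% and 17.1%.

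In 59 chains every centre lay inside 1 gene, and in 48 no centre lay in a gene. A chain overlapped 1 gene in 91 cases, 2 or more in 52, and none in 34. The 34 held 215 regions, 105 of them with a yw peak, and lay a median of 5.09 kb from the nearest gene, with 5 over 50 kb from one. Of the 48 chains without a centre in a gene, 11 overlapped a gene of the wing and pathway lists described below or had one as a neighbour at any distance. A like count was not made for other chains or other DNA outside genes, so nothing is read from this number. Among the 11, the chain on 2R at 11527942 to 11562188 met engrailed (en), the selector of the posterior compartment. It had 7 regions, of which 3 had a yw peak. A chain of 8 regions lay between teashirt (tsh), a factor of the hinge and notum, 23633 bp away, and CG11629, 14133 bp away. Between the Iroquois genes caup and mirr, which pattern the notum and veins, lay 5 regions on 3L at 12643488 to 12663382. The best of them, at 12660613 to 12662213, had 26.5 and 19.9 in Osa-GFP discs and 5.40 in yw replicate 2.

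Of 13922 protein-coding genes, 225 overlapped a chain (1.62%) and 154 held the centre of a chain region (1.11%). The genes that held centres were mostly long. The 225 overlapping genes had a median length of 14032 bp and a first quartile of 2382 bp. The 72 genes with 5 or more centres had a median length of 45933 bp and the 154 with any centre 28142 bp, against 19464 bp for the 755 genes that held only reproducible regions outside chains and 2163 bp for all genes. A centre was held by 0.134% of genes under 5 kb and by 14.0% of genes of 50 kb or more. Genes overlapping chains numbered 64.0 per Mb of chain, against 104 genes per Mb of the arms. A span overlaps a chain the more easily the longer it is, so list counts are also given by gene length.

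Homothorax (hth), a homeodomain factor of the hinge, held more centres than any other gene, 19 in 2 chains on 3R. The chain at 10518484 to 10551426 had 10 regions, with 3 yw regions, and its best, at 10528272 to 10529357, had folds of 34.0 and 27.4 in Osa-GFP discs and 8.10 in yw replicate 2. The chain at 10573388 to 10602612 had 9 regions, of which 5 had a yw peak. Another chain, of 6 regions, began 17300 bp beyond the right end of hth, but lay 758 bp from CG6465, for which it is named. Like hth, the genes sbb, Antp, dally, brat and olf413 each held centres of 2 chains named for them.

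The lists of wing identity, veins, ecdysone response, Hippo and growth, and the EGFR, Hh, Dpp, Wg and Notch pathways together named 180 genes, of which 44 (24.4%) overlapped a chain and 36 (20.0%) held a centre. The lists share members, were chosen with earlier results of these data known, and carry no test here. Counting also genes within 10 kb of a chain, there were 49 of 180 (27.2%), against 523 of all 13922 genes (3.76%). The genes added were dpp, E(spl)m3-HLH, deltex (dx), kek1 and vvl. Over all genes, 9.39% of those of 20 kb or more and 1.01% of the shorter ones overlapped a chain.

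**Figure D5:**
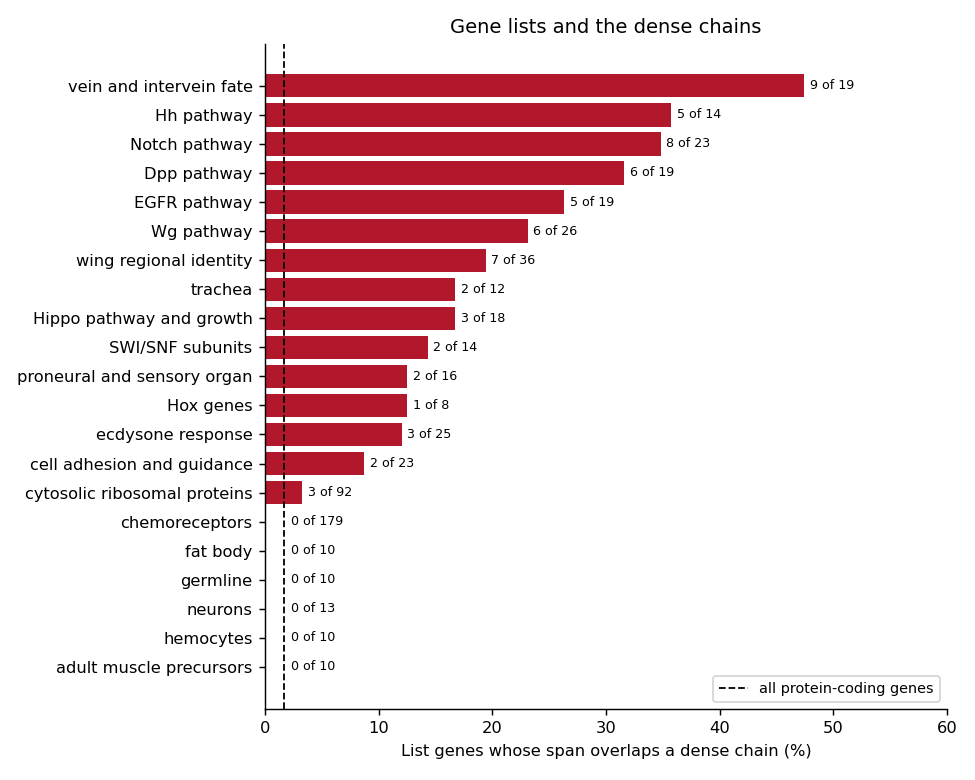
Percentage of the genes of each of the 21 lists whose span overlaps a dense chain by 1 bp or more (bars, x axis from 0), with the numbers beside the bars; the dashed line marks all protein-coding genes, at 1.62%. Vein and intervein genes are at 47.4% and the lists of 6 other cell types or gene families are at 0.

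Of 36 genes of wing regional identity, 7 overlapped a chain (19.4%), which were 4 of the 14 of 20 kb or more and 3 of the 22 shorter ones. Besides hth they were vestigial (vg), which selects wing fate, zfh2 of the hinge, the T-box gene bifid (bi), tup, and the odd-skipped family genes bowl and drm. The chain at vg, on 2R at 12888555 to 12910499, had 5 regions, of which only the best was centred in the gene. This region, at 12888555 to 12889802, had 20.4 and 17.8 in Osa-GFP discs and no yw peak, and the other regions had Osa-GFP folds of 4.76 to 12.2 in replicate 1 and 4.79 to 8.22 in replicate 2, with 2 yw regions. At bi, a target of Dpp on X, 8 regions inside the gene had 6 with a yw peak, and 7 more regions, 5 with a yw peak, ended 1119 bp before its span. All 4 centres in bowl had a yw peak, and none of the 4 in tup or the 2 in drm had. The chain at zfh2 was 1 of those on arm 4, with 6 regions and 4 with a yw peak.

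Of 19 vein and intervein genes, 9 overlapped a chain (47.4%), 5 of the 10 long and 4 of the 9 shorter ones. They were N, its ligand gene Delta, the EGFR antagonist gene argos (aos), the Ets factor gene pointed (pnt), net, plexus (px), en, extramacrochaetae (emc) and schnurri (shn), whose zinc finger protein acts with the Smads below Dpp. No centre lay in net, en or emc. The 9 regions at shn ran over 23.2 kb on 2R, and the best, at 11182535 to 11183340, had 54.4 and 47.2 in Osa-GFP discs and 16.9 in yw replicate 2, the highest Osa-GFP folds among the chains of list genes. Delta had 9 regions over 29.6 kb on 3R with 3 yw regions, and its best, at 19310184 to 19311143, had 42.8 and 29.4 in Osa-GFP discs, against 4.46 and 18.2 in yw discs.

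In the Notch list 8 of 23 genes overlapped a chain (34.8%), 5 of the 7 long and 3 of the 16 shorter ones: the receptor N, the ligands Delta and Ser, the glycosyltransferase gene fringe (fng) that modifies N, lola, and 3 basic helix-loop-helix target genes of the E(spl) complex. lola is not a core member of the pathway. The E(spl) genes are under 2 kb each and held no centre. Their chain, on 3R at 25996360 to 26021209, had 7 regions, 6 with a yw peak, and its best region had 31.3 and 26.0 in Osa-GFP discs and 8.78 in yw replicate 2. At fng 6 regions over 19.6 kb had folds of up to 9.51 and 7.53 in Osa-GFP discs, no higher than the medians over all chain regions, and 1 had a yw peak.

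In the Wg list 6 of 26 genes (23.1%) overlapped a chain, 5 of the 9 long and 1 of the 17 shorter ones. These act at the cell surface except for pan, the TCF factor. They were the receptors fz2 and fz3, the co-receptor arr, and the glypicans dlp and dally, which bind secreted ligands. No chain overlapped a Wnt ligand gene of the list. The dally chains differed in yw peaks: 5 of 6 regions at the left one, on 3L at 8819396 to 8840350, and none of 6 at the right one, at 8877767 to 8885382, had one. Of the 6 regions of the left chain 2 were centred in dally, as were all 6 of the right chain. The best region of the left chain, centred 5613 bp outside dally, had 42.8 and 30.1 in Osa-GFP discs and 9.82 and 20.3 in yw discs. At the right chain it had 17.7 and 15.7 in Osa-GFP discs. At dlp 8 regions over 32.4 kb included 3 with a yw peak.

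In the Dpp list 6 of 19 genes (31.6%) overlapped a chain, 4 of the 7 long and 2 of the 12 shorter ones: the receptor gene thickveins (tkv), shn, the repressor gene brinker (brk), the inhibitory Smad gene Dad, bi and dally. All 10 regions at tkv lay in the gene, and 5 had a yw peak. Its best region, on 2L at 5249554 to 5250685, had 24.5 and 19.9 in Osa-GFP discs and 6.75 in yw replicate 2. brk is short and held no centre; its chain was centred in CG1677, whose span surrounds it.

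In the Hh list 5 of 14 genes (35.7%) overlapped a chain, 1 of the 3 long and 4 of the 11 shorter ones: the ligand gene hh, the receptor gene ptc, the transcription factor gene ci, the co-receptor gene boi, and en. At hh 8 regions over 19.1 kb on 3R had 3 with a yw peak, and 3 were centred in the gene. The region at 23147434 to 23149610, outside hh and ending 42 bp from the gene unk, had 45.5 and 30.8 in Osa-GFP discs and 5.40 in yw replicate 2. ci, pan and RpS3A on arm 4 shared 1 chain of 5 regions. In the EGFR list 5 of 19 genes (26.3%) overlapped a chain, 4 of the 8 long and 1 of the 11 shorter ones: Egfr, Raf and pnt, which carry the signal, and aos and sprouty (sty), which dampen it. Egfr held all 8 regions of a 12.9 kb chain on 2R, 4 with a yw peak, and its best region had 23.1 and 16.4 in Osa-GFP discs and 6.75 in yw replicate 2.

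In the Hippo and growth list 3 of 18 genes (16.7%) overlapped a chain, 2 of the 7 long and 1 of the 11 shorter ones: kibra, and dachsous (ds) and four-jointed (fj), which signal between cells through Fat. The chain met by fj had 9 regions with no centre in a gene, and 1 had a yw peak. In the ecdysone list 3 of the 15 long genes and none of the 10 shorter ones overlapped a chain: EcR with 9 centres, and Eip75B and Eip74EF with 8 each, 5 with a yw peak in each of the 3. Of the 8 Hox genes, 6 of them long, only Antp overlapped chains. Of 14 SWI/SNF subunit genes, Act5C did, among 13 shorter genes, and osa, the 1 long gene. osa itself held 7 regions over 18.2 kb on 3R at 17700082 to 17718319, 5 with a yw peak. Its best region, at 17703687 to 17704988, had 30.6 and 26.0 in Osa-GFP discs, against 5.36 and 6.75 in yw discs, and the region at its right end, 17717175 to 17718319, had 7.47 and 8.22 in Osa-GFP discs and 18.2 in yw replicate 2. Whether the GFP tag sits at this locus is not given in the labels.

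In the trachea list 2 of 12 genes overlapped a chain (16.7%, the share of the Hippo list): the chitin deacetylase genes verm and serp, in 1 chain, both among the 6 shorter genes. Of the proneural and sensory organ genes 2 of 16 did (12.5%), emc and hairy (listed as hry), both among 13 shorter genes. Of the cell adhesion and guidance genes 2 of 23 did (8.70%), ed and trn, 1 of 18 long and 1 of 5 shorter ones. Of the cytosolic ribosomal protein genes, all short, 3 of 92 did (3.26%), and none held a centre. None overlapped a chain among 10 markers of adult muscle precursors, 10 of hemocytes, 13 of neurons, 10 of the germline and 10 of the fat body, or among 179 chemoreceptor genes, of which 177 are under 20 kb. Of the neuron genes 9 are of 20 kb or more, as are 4 of the muscle precursor and 2 of the hemocyte genes. These marker lists are short.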

How the data were processed

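The authors deposited 1 peak list per library, on build dm6. Per the submitters' processing notes, MACS2 2.1.2, deepTools 2.4.1, Picard 2.2.4, SAMtools 1.10 and Bowtie2 2.3.4.1 were used. How peaks were thresholded is not given in the sources used here. In the deposited lists each peak has a fold (a ratio over background at the summit), a p and a q as −log10 values, an integer score and a summit position. The deposited score was not used. The deposited fold served to describe and rank peaks within a list, and gave whole summit fragments for 100% of peaks (tolerance 0.01).

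Merging, chaining and Wilson intervals at the 95% level were computed with Python 3.11.15, pandas 2.3.3, numpy 2.4.6 and scipy 1.17.1, and figures with matplotlib 3.10.9. The scripts were checked on simulated peak lists. Genes were 13922 protein-coding spans of a RefSeq table of the same assembly, without strand. Chain regions and gene lists were chosen with earlier results of these data known. The chains named are the 12 with most regions (ties: longer span first), the 5 longest and 3 densest of the others, and chains of list genes. A chain is named for the gene that holds most centres, else for the longest gene that overlaps its span, or else for the nearest gene. Within a chain the best region has the best worse-of-2 rank in the Osa-GFP lists. No genome sequence was used, so no sequence or motif is given.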

Additional observations from a re-analysis of the deposited data

How the results depend on the processing

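Of 66 values recomputed under 15 alternatives, 41 kept within 1.5 times the count or within the interval of the share, and 25 did not; the cause was not tested. The 177 chains became 96 with a gap of 5 kb, 53 with 8 or more regions, 41 at a −log10 q of 10 or more in every list, and 36 from regions without a yw peak alone. Their 1212 regions became 587, 517, 249 and 213 in that order. Leaving out a library gave 176 to 349 chains and 1207 to 2830 regions, with 279 chains and 2144 regions without Osa-GFP replicate 1, and 349 and 2830 without Osa-GFP replicate 2, since 1 library's peak was then enough. The share with a yw peak became 52.8% (5 kb), 52.4% (8 regions) and 33.3% (−log10 q of 10), and 10.7% to 47.9% without a library, the lowest without yw replicate 2, the deeper control; it has no value among regions without a yw peak. The share near a gene end became 5.03% with 8 or more regions, 3.76% without yw regions and 12.3% at 1000 bp, and 6.86% to 7.84% without a library. The share inside genes became 57.6% with 4 or more regions, 39.9% without yw regions, and 53.6% to 59.4% without a library. Between chain and other regions, the difference ran from -1.07 to 8.69 points for yw peaks, -13.5 to -2.79 points for gene ends and -23.8 to -7.96 points inside genes. Chains of each library's own peaks were chosen after seeing the data. The planned motif search was not run. No paired analysis was possible because the peak lists give no value for a region in a library without a peak there and no test was made. Depth limits yw replicate 1 most.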
